A study of Mus musculus with 8 samples.

Results

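The genes described here are 10 members of the fibroblast growth factor (FGF) pathway and its feedback onto the kinase ERK: the ligand Fgf4, the receptors Fgfr1 and Fgfr2, the Sprouty genes Spry1, Spry2 and Spry4, the dual-specificity phosphatases Dusp6 and Dusp4, and the ETS transcription factors Etv4 and Etv5. They are 10 of the 19938 genes measured, each taken by its symbol in the platform annotation, with the brightest probe set where a symbol had several. All 10 were measured.

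RNA came from CGR8, a feeder-independent line of mouse embryonic stem cells (ESCs), whose labels give C57BL/6 as background strain and 129P2/OlaHsd as donor strain. WT ESCs and PML KD ESCs were taken at day 0, in serum and leukaemia inhibitory factor (LIF). WT EBs and PML KD EBs were taken at day 4 of differentiation as embryoid bodies, aggregates formed in hanging drops in serum without LIF. PML KD cells carried a lentiviral short hairpin RNA against Pml, the gene of the promyelocytic leukaemia protein, and were selected with puromycin. The protocol also names an empty virus, and the labels do not say whether the WT cells carried it. There were 2 Affymetrix MoGene arrays per group, 8 in all over the 4 groups. As the labels name no separate cultures, the p-values reflect nothing but the spread among these arrays, which may be technical.

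FGF4 is secreted by ESCs and by the epiblast of the mouse embryo, and binds FGF receptors, chiefly FGFR1 and FGFR2, which activate RAS, RAF, MEK and ERK in turn. In mouse ESCs this pathway is known to prime cells for leaving pluripotency, and in the blastocyst it directs cells to primitive endoderm. ERK in turn switches on its own brakes: Sprouty proteins act on the way from receptor to RAS, DUSP6 removes phosphate from ERK in the cytoplasm and DUSP4 in the nucleus. ETV4 and ETV5 are transcription factors whose genes are among the usual targets of FGF signalling. The arrays measure RNA alone, and phosphorylated ERK was not analysed here.

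Signals are log2 of the deposited intensity, each difference carries the standard error (SE) of a limma fit over all 8 arrays with n = 2 per group, and a gene is said to have risen or fallen where its Benjamini-Hochberg adjusted p over all genes was under 0.05. The knocked-down gene Pml fell by 0.60 ± 0.08 on the log2 scale at day 0 (adjusted p = 0.000317) and by 0.24 ± 0.08 at day 4 (adjusted p = 0.0451, limma). The PML KD ESC arrays stood apart from the other 6 on the Y chromosome: Eif2s3y read 5.20 and 4.95 there against 9.86 to 10.20 elsewhere, PML KD EBs included. They also stood apart on chromosome 8, whose brighter genes had a median difference from WT of 0.10 against -0.16 on the other chromosomes at day 0, and on chromosome 14, with 0.03 against -0.15. At day 4 these medians were 0.09 against 0.08 for chromosome 8 and 0.08 against 0.08 for chromosome 14. Every comparison that uses day 0 of PML KD rests on these arrays. The 8 markers of pluripotent cells averaged 12.52 to 12.53 in WT ESCs, 11.96 to 12.03 in PML KD ESCs, and 10.40 to 10.64 in the EBs. At day 0, 6 of these 8 fell in PML KD and none rose, with a median of -0.65. All 8 were among the brighter genes, those above the median signal over the 8 arrays. Of all brighter genes 24.6% rose and 43.3% fell at day 0, with a median of -0.139. The marker falls stood beside the falls of the feedback genes given below, and their part in those was not tested. The 12 markers of primitive and visceral endoderm averaged 7.25 to 7.62 in the ESCs and among EBs 11.53 to 11.54 in WT against 10.00 to 10.01 in PML KD. In such bulk samples fewer cells of a type and less RNA per cell cannot be told apart.

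Fgf4, Fgfr1 and Fgfr2 rose at day 0 and at day 4, by 0.37 to 1.08 on the log2 scale, while most of the 7 Sprouty, phosphatase and ETS genes fell. At day 0, 4 of the 10 members rose and 6 fell, where 52.3% of all genes passed, 27.5% higher and 24.9% lower. Of the 7 feedback and ETS genes 6 fell and Spry4 rose, with a median difference of -0.52 against 0.085 over all genes. At day 4, 3 members rose and 5 fell, where 28.6% of all genes passed, 16.8% higher and 11.8% lower. Of the 7 feedback and ETS genes 5 fell and none rose at day 4, with a median of -0.65 against -0.023 over all genes, and Dusp6 and Etv5 did not pass. All 10 members lie in the brighter part of the array, and the brighter genes, those above the median signal over the 8 arrays, differed from all genes. Of these 9969 brighter genes 24.6% rose and 43.3% fell at day 0, with a median of -0.139, and 28.8% rose and 13.7% fell at day 4, with a median of 0.076.

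**Figure D1:**
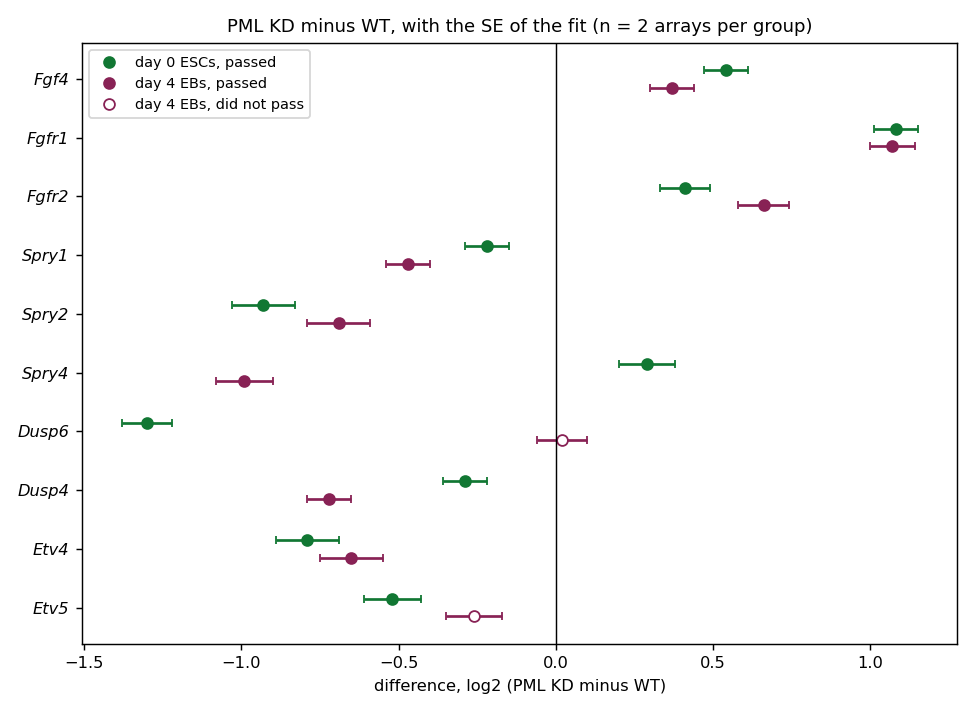
Difference of PML KD from WT (log2, horizontal axis) for the 10 genes at day 0 and day 4. Points are fitted differences and bars are their SE (n = 2 arrays per group), with an open symbol where the adjusted p was not under 0.05. Fgf4, Fgfr1 and Fgfr2 lie to the right of 0 at both days, Spry4 changes sides, and Dusp6 moves from -1.30 to 0.02.

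Which arrays were left out mattered for the weaker day 0 calls. Leaving out 1 array of the day 0 comparison at a time left 4 to 6 of the 7 feedback and ETS genes falling and 0 to 1 rising, with the fewest calls without WT ESC replicate 1. At day 4 every such setting left 5 falling and 0 rising. Fitting the 4 day 4 arrays alone, with no day 0 array in the fit, gave the same counts at day 4, 3 members rising and 5 falling.

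The ligand Fgf4 was brightest in PML KD ESCs and dimmest in WT EBs. The arrays of WT ESCs read 11.86 and 11.91, and those of PML KD ESCs 12.39 and 12.47. WT EBs read 10.71 and 10.77, and PML KD EBs 11.10 and 11.12. No group overlapped another, and at each day the PML KD arrays were the higher ones. With so few arrays, the genotypes also stood apart for markers that did not pass, such as Esrrb and Afp at day 0. The share of all genes whose groups stood apart is not given. The lack of overlap, here and below, therefore has no background to be read against. Fgf4 rose in PML KD by 0.54 ± 0.07 at day 0 (1.46-fold, adjusted p = 0.000402) and by 0.37 ± 0.07 at day 4 (1.29-fold, adjusted p = 0.00663, limma). The day 4 call was lost in the authors' workbook of gene values after quantile normalization, with 0.24 and an adjusted p of 0.0517. With every array shifted to a common median the day 0 difference was 0.32 (adjusted p = 0.00629). On chromosome 7 the 16 measured genes nearest to Fgf4 had a median difference of 0.33 at day 0, with a range of -0.45 to 1.28. At day 4 their median was 0.02, with a range of -0.46 to 0.39. Fgf4 was within the range of these neighbours at both days, and the part of its surroundings was not tested. From day 0 to day 4 Fgf4 fell by 1.14 ± 0.07 in WT (adjusted p = 5.59e-06) and by 1.32 ± 0.07 in PML KD (adjusted p = 2.55e-06). These changes differed by -0.18 ± 0.10, which did not pass (adjusted p = 0.18).

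Fgfr1, a main FGF receptor of undifferentiated ESCs, had the same level at both days and a higher level in PML KD. Its arrays read 10.14 and 10.16 in WT ESCs and 10.14 and 10.17 in WT EBs. They read 11.24 and 11.22 in PML KD ESCs and 11.20 and 11.26 in PML KD EBs. The genotypes did not overlap, whereas the days overlapped within each genotype. Fgfr1 rose by 1.08 ± 0.07 at day 0 (2.11-fold, adjusted p = 1.42e-05) and by 1.07 ± 0.07 at day 4 (2.11-fold, adjusted p = 4.06e-05, limma). Across alternative processing the difference ran from 0.85 to 1.35 at day 0 and from 1.02 to 1.24 at day 4, and it passed under all 17 alternatives tried. Several of the 17, here and for the other genes, cannot change the difference itself, only its spread or adjusted p. From day 0 to day 4 the difference was 0.01 ± 0.07 in WT (adjusted p = 0.959) and 0.00 ± 0.07 in PML KD (adjusted p = 0.996). With every array shifted to a common median, the WT change was -0.20 and passed (adjusted p = 0.0381).

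Fgfr1 lies on chromosome 8, and its difference minus that chromosome's median was 0.98 at day 0 and 0.99 at day 4. The 20 measured genes nearest to it had a median difference of 0.28 at day 0, with a range of -0.89 to 0.87, and of 0.02 at day 4, with a range of -0.46 to 0.55. Fgfr1 was above all 20 neighbours at each day. At day 4 its difference was 1.07 and the chromosome's median was 0.09. The part of the chromosome in the Fgfr1 difference was not tested.

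**Figure D2:**
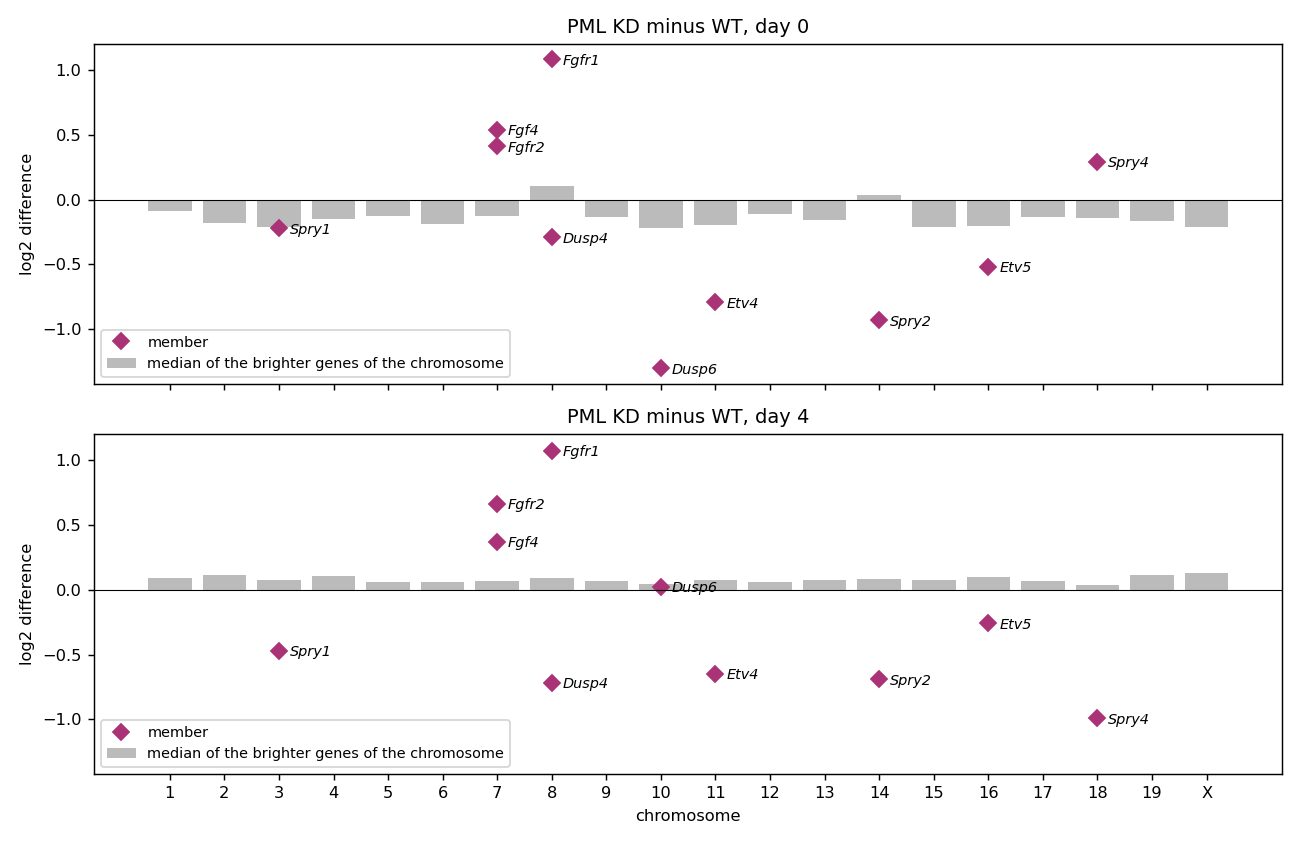
Difference of PML KD from WT (log2, vertical axis) of the 10 genes, as diamonds, at their chromosomes, over bars for the median of the brighter genes of each chromosome, at day 0 above and day 4 below. At day 0 chromosome 8 has a median of 0.102 and chromosome 14 of 0.032, whereas the other bars lie below 0; Fgfr1 lies at 1.08 and 1.07.

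Fgfr2, the receptor that marks primitive endoderm precursors and trophectoderm in the mouse blastocyst, was dim in ESCs and rose with differentiation. The arrays read 7.61 and 7.62 in WT ESCs and 7.96 and 8.08 in PML KD ESCs. In EBs the WT arrays read 9.39 and 9.51 and the PML KD arrays 10.08 and 10.15. The 4 groups did not overlap, and PML KD was higher at each day. Fgfr2 rose by 0.41 ± 0.08 at day 0 (1.32-fold, adjusted p = 0.00322) and by 0.66 ± 0.08 at day 4 (1.58-fold, adjusted p = 0.000646, limma). The day 0 call was lost under the median shift, with 0.18 (adjusted p = 0.0915), and in the quantile-normalized workbook, with 0.23 (adjusted p = 0.0583). At day 4 it passed under all 17 alternatives, from 0.60 to 1.08.

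From day 0 to day 4 Fgfr2 rose by 1.84 ± 0.08 in WT (3.57-fold, adjusted p = 7.81e-07) and by 2.09 ± 0.08 in PML KD (4.27-fold, adjusted p = 4.14e-07). The difference of these rises was 0.26 ± 0.11 and did not pass (adjusted p = 0.0896). Markers of cell types that carry this receptor moved in different directions at day 4. All 12 primitive and visceral endoderm markers fell in PML KD EBs, whereas 6 of the 8 trophectoderm markers rose and 1 fell. The 8 trophectoderm markers averaged 7.34 to 7.37 in WT EBs but 8.19 to 8.24 in PML KD EBs, against 6.97 to 7.11 in the ESCs. The part of either cell type in the Fgfr2 difference was not tested.

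**Figure D3:**
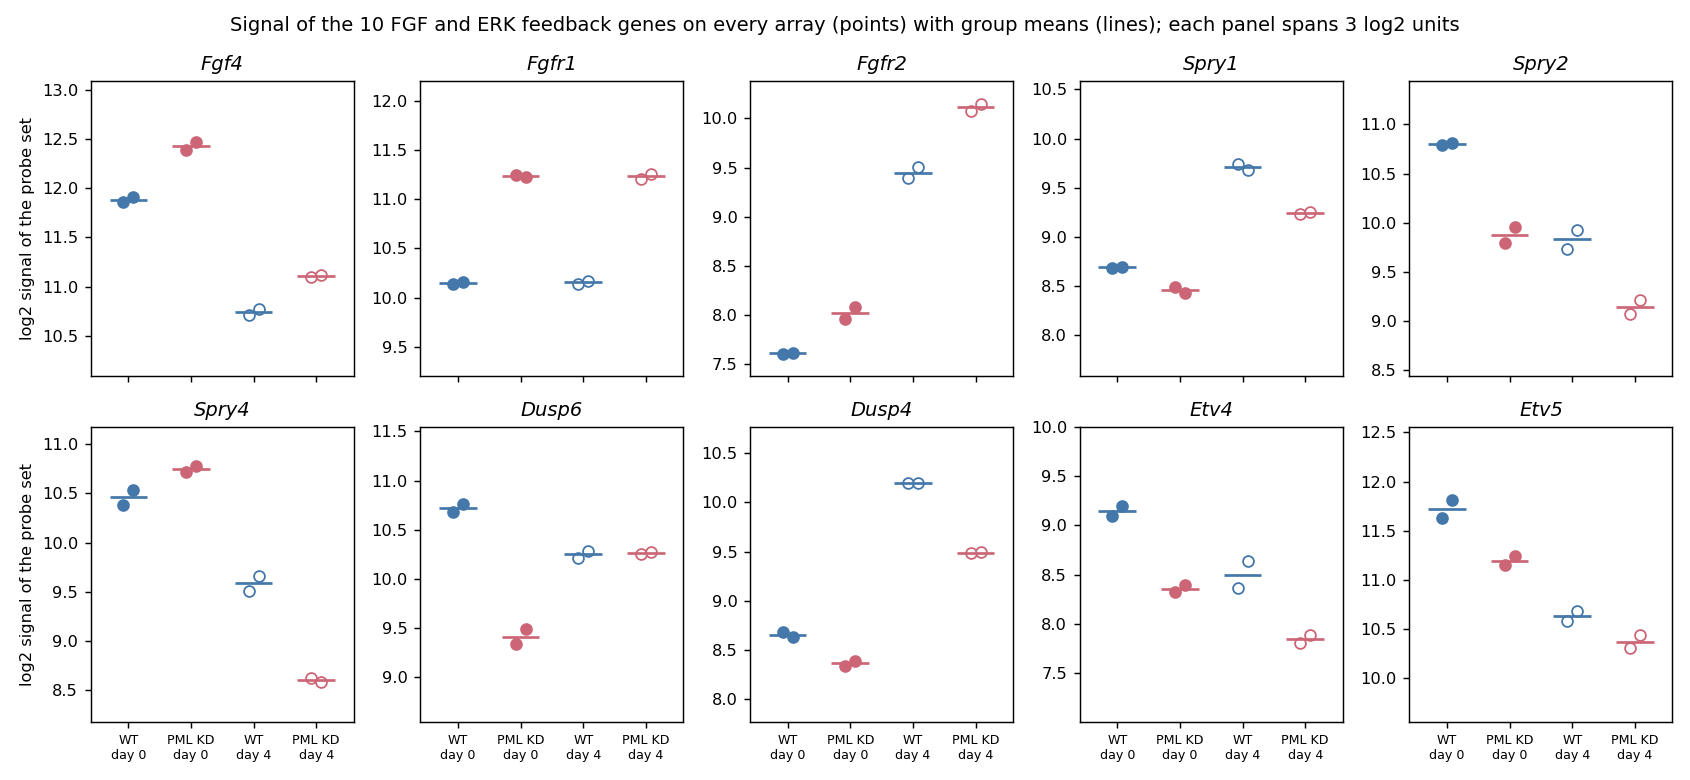
Signal of each gene (log2, vertical axis, 3 log2 units in every panel) on every array (points), with the group mean as a line, for WT and PML KD at day 0 and day 4. Fgfr1 separates by genotype alone, at 10.14 to 10.17 against 11.20 to 11.26, whereas Dusp6 is low in PML KD ESCs alone, at 9.34 and 9.49.

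The 3 Sprouty genes, whose products restrain receptor tyrosine kinase signalling upstream of ERK, differed in their patterns. Spry2 fell in PML KD at both days. Its arrays read 10.79 and 10.81 in WT ESCs and 9.79 and 9.96 in PML KD ESCs. In EBs they read 9.73 and 9.93 in WT and 9.07 and 9.21 in PML KD. Within each day the groups did not overlap, and PML KD ESCs overlapped WT EBs. The fall was 0.93 ± 0.10 at day 0 (1.90-fold, adjusted p = 0.000125) and 0.69 ± 0.10 at day 4 (1.61-fold, adjusted p = 0.00147, limma), and it passed under all 17 alternatives at both days.

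Spry2 lies on chromosome 14, where its 20 nearest measured genes had a median of 0.16 at day 0 (range -0.63 to 1.14) and of -0.27 at day 4 (range -0.97 to 0.81). Spry2 was below all of these neighbours at day 0 and within their range at day 4. The neighbours Mir17, Mir18, Mir19a, Mir20a, Mir19b-1 and Mir17hg belong to 1 microRNA cluster and are not separate loci. Their differences, 0.65 to 1.14, were the highest of the range at day 0. With differentiation Spry2 fell by 0.97 ± 0.10 in WT (adjusted p = 7.05e-05) and by 0.74 ± 0.10 in PML KD (adjusted p = 0.000348).

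Spry4 was the feedback gene whose difference from WT changed direction between the days. WT ESCs read 10.38 and 10.54, and PML KD ESCs 10.72 and 10.78. WT EBs read 9.51 and 9.66, and PML KD EBs 8.62 and 8.58. The groups did not overlap at either day, with PML KD above WT in ESCs and below it in EBs. The day 0 difference was a rise of 0.29 ± 0.09 (1.22-fold, adjusted p = 0.0227), and the day 4 difference was a fall of 0.99 ± 0.09 (1.98-fold, adjusted p = 0.000149, limma).

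The day 0 rise of Spry4 was the less certain of these. It was 0.06 under the median shift (adjusted p = 0.596). Leaving out WT ESC replicate 1 gave 0.21 (adjusted p = 0.143). Leaving out a PML KD ESC array gave 0.32 for replicate 1 (adjusted p = 0.0527) and 0.26 for replicate 2 (adjusted p = 0.0847). The day 4 fall passed under all 17 alternatives, from -1.19 to -0.87. With differentiation Spry4 fell by 0.87 ± 0.09 in WT (adjusted p = 6.2e-05) and by 2.15 ± 0.09 in PML KD (adjusted p = 5.18e-07). The fall in PML KD exceeded that in WT by 1.28 ± 0.12 (difference of changes -1.28, adjusted p = 8.83e-05).

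Spry1 was higher in EBs than in ESCs. Among ESCs it read 8.68 and 8.70 in WT against 8.49 and 8.43 in PML KD. Among EBs it read 9.74 and 9.68 in WT against 9.23 and 9.25 in PML KD. No group overlapped another. Spry1 fell in PML KD by 0.22 ± 0.07 at day 0 (1.17-fold, adjusted p = 0.0285) and by 0.47 ± 0.07 at day 4 (1.39-fold, adjusted p = 0.00186, limma). The day 0 call was lost in 6 of 17 alternatives, among them each of the runs without WT ESC replicate 1 (adjusted p = 0.0889), WT ESC replicate 2 (adjusted p = 0.119) or PML KD ESC replicate 2 (adjusted p = 0.0941). Minus the median of the brighter genes of its chromosome, 3, the day 0 difference was -0.01. At day 4 it passed under all 17. With differentiation Spry1 rose by 1.03 ± 0.07 in WT (adjusted p = 8.89e-06) and by 0.78 ± 0.07 in PML KD (adjusted p = 3.95e-05).

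Dusp6, the cytoplasmic ERK phosphatase whose transcript is widely used as a readout of FGF and ERK activity, fell in PML KD at day 0 and had no difference that passed at day 4. WT ESCs read 10.68 and 10.76, and PML KD ESCs 9.34 and 9.49. WT EBs read 10.21 and 10.29, and PML KD EBs 10.25 and 10.28. PML KD ESCs lay below every other array, and the EB groups overlapped. The fall at day 0 was 1.30 ± 0.08 (2.46-fold, adjusted p = 1.3e-05, limma) and passed under all 17 alternatives, from -1.52 to -1.14. At day 4 the difference was 0.02 ± 0.08 (adjusted p = 0.897), and it passed under 0 of the 17, from -0.07 to 0.13.

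With differentiation Dusp6 therefore moved in opposite directions in the genotypes. It fell by 0.47 ± 0.08 in WT (adjusted p = 0.00153) and rose by 0.85 ± 0.08 in PML KD (1.80-fold, adjusted p = 5.05e-05). The fall in WT passed under all 17 alternatives but ranged from -0.82 in the workbook as deposited to -0.28 after quantile normalization. The difference of changes was 1.32 ± 0.11 (adjusted p = 5.81e-05, limma). Both Dusp6 and Spry4 values at PML KD day 0 come from the arrays that stood apart on the Y chromosome, and the part of that difference between arrays was not tested.

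Dusp4, the nuclear ERK phosphatase, had the order of groups seen for Spry1. Among ESCs it read 8.68 and 8.63 in WT against 8.34 and 8.39 in PML KD. Among EBs it read 10.20 and 10.20 in WT against 9.48 and 9.49 in PML KD. No group overlapped another, and WT EBs were highest. Dusp4 fell in PML KD by 0.29 ± 0.07 at day 0 (1.22-fold, adjusted p = 0.00856) and by 0.72 ± 0.07 at day 4 (1.64-fold, adjusted p = 0.000239, limma). The day 0 call was lost without WT ESC replicate 1, with -0.26 (adjusted p = 0.0552), and in the quantile-normalized workbook, with -0.31 (adjusted p = 0.071). The gene lies on chromosome 8, and minus that chromosome's median the differences were -0.39 at day 0 and -0.80 at day 4.

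With differentiation Dusp4 rose by 1.55 ± 0.07 in WT (2.93-fold, adjusted p = 9.34e-07) and by 1.12 ± 0.07 in PML KD (2.17-fold, adjusted p = 4.62e-06). Its rise was 0.43 ± 0.10 smaller in PML KD (difference of changes -0.43, adjusted p = 0.00707). That call was lost under the median shift, with -0.09 (adjusted p = 0.496). The deposited workbook, taken without further scaling, gave -0.43, which did not pass either (adjusted p = 0.064). The brighter genes of chromosome 8 had a median difference of changes of -0.074, against 0.251 on the other chromosomes. The averages of the endoderm markers shared the order of Spry1 and Dusp4. They were 7.52 to 7.62 in WT ESCs, 7.25 to 7.37 in PML KD ESCs, 11.53 to 11.54 in WT EBs and 10.00 to 10.01 in PML KD EBs. Most single markers had no fall that passed in PML KD ESCs, and the largest differences were those of Cubn, at -1.68, and Dab2, at -1.45. At day 0, 3 of the 12 markers fell in PML KD, 1 rose and 8 did not pass, with a median difference of -0.08. At day 4 all 12 of them fell in PML KD, by 0.66 or more. Their part in the Spry1 and Dusp4 differences was not tested.

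Etv4 and Etv5 were brightest in WT ESCs and dimmest in PML KD EBs. Etv4 read 9.10 and 9.20 in WT ESCs and 8.32 and 8.39 in PML KD ESCs, then, among EBs, 8.36 and 8.64 in WT against 7.81 and 7.89 in PML KD. The genotypes did not overlap at either day, and PML KD ESCs overlapped WT EBs. Etv4 fell by 0.79 ± 0.10 at day 0 (1.73-fold, adjusted p = 0.000328) and by 0.65 ± 0.10 at day 4 (1.57-fold, adjusted p = 0.00227, limma), and passed under all 17 alternatives at both days. In the authors' workbook the day 4 difference was larger, at -1.49 as deposited and -1.45 after quantile normalization. With differentiation Etv4 fell by 0.65 ± 0.10 in WT (adjusted p = 0.000854) and by 0.51 ± 0.10 in PML KD (adjusted p = 0.00344). In the workbook the change in PML KD was larger, at -1.39 after quantile normalization and -1.53 as deposited, and that in WT was -1.05 as deposited.

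Etv5 read 11.63 and 11.81 in WT ESCs against 11.15 and 11.24 in PML KD ESCs. Among EBs it read 10.58 and 10.69 in WT against 10.31 and 10.44 in PML KD. No group overlapped another. It fell by 0.52 ± 0.09 at day 0 (1.44-fold, adjusted p = 0.00193, limma). The day 4 difference of -0.26 ± 0.09 did not pass (adjusted p = 0.0726). It passed under 7 of 18 alternatives, among them quantile normalization, with -0.37 (adjusted p = 0.0179), and the unscaled workbook, with -0.62 (adjusted p = 0.0141).

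A dimmer probe set of the array also carries the symbol Etv5, and it gave a clearer day 4 difference. At day 4 WT arrays read 10.72 and 10.74 and PML KD arrays 10.02 and 10.18, which differ by -0.63 (adjusted p = 0.00097). At day 0 the difference was -0.48, with arrays at 11.35 and 11.44 in WT and at 10.87 and 10.96 in PML KD. The workbook pairs this dimmer probe set with Etv5, and not the brighter one. Which locus the brighter one reports was not checked, and the Etv5 calls of the main fit and its profile rest on it. The 2 probe sets thus differ in whether the day 4 fall passed, and this alternative was chosen after seeing the data. With differentiation the brighter probe set fell by 1.09 ± 0.09 in WT (adjusted p = 2.9e-05) and by 0.82 ± 0.09 in PML KD (adjusted p = 0.000139).

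The promoters of 3 genes that fell together in PML KD ESCs are shown, so that the letters can be read beside the values: the 250 bases before the start site from RefSeq, build GRCm38.p6, written 5′ to 3′ on the strand of the gene, with 1 of the 2 start sites listed for Etv5. Spry2 is at chr14:105896820-105897069 on the minus strand, Etv5 at chr16:22439571-22439820 on the minus strand and Dusp6 at chr10:99262981-99263230 on the plus strand.
Spry2: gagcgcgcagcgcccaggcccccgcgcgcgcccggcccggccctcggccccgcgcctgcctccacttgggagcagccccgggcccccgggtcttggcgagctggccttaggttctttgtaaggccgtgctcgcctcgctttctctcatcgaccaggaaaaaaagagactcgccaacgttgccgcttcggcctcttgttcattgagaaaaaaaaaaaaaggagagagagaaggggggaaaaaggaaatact
Etv5: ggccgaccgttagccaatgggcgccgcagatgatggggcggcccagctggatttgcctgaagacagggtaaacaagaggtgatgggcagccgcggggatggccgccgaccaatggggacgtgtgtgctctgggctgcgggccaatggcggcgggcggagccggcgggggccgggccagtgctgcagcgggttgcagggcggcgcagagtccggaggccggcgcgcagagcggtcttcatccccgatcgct
Dusp6: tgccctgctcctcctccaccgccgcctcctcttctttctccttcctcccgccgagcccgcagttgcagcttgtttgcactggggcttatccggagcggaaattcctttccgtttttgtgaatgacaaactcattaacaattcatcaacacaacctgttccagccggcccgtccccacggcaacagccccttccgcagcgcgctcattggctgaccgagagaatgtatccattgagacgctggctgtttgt

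Windows from 250 bases before to 50 bases after the start site were searched on both strands for the ETS motif CCGGAA and the AP-1 motif TGANTCA, in which N is any base. No RefSeq window was at hand for Fgfr1, Dusp4 and Etv4, and Spry4 was left out of the search. The windows searched were those of 6 of the 10 genes: Fgf4, Fgfr2, Spry1, Spry2, Dusp6 and Etv5. The window of 1 of these genes held the ETS motif, that of Spry2, beginning 33 bases after the start site. Of all 32851 windows 14.9% held the ETS motif and 7.81% the AP-1 motif, and none of the 6 genes' windows held the AP-1 motif. The Spry2 match is at chr14:105896770-105896799 on the minus strand, shown with the motif in capitals and its flanks in lower case.
Spry2 match: gaggtcatctatcCCGGAAtccgggagggt

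From day 0 to day 4 most of the 10 genes kept 1 direction in both genotypes. In WT 3 of the 10 members rose and 6 fell from day 0 to day 4, where 49.9% of all genes passed, 24.3% higher and 25.6% lower. In PML KD 4 rose and 5 fell, where 49.6% passed, 24.3% higher and 25.2% lower. Of the brighter genes 24.0% rose and 43.9% fell in WT, and 39.0% rose and 27.3% fell in PML KD. Fgfr2, Spry1 and Dusp4 rose in both genotypes, and Fgf4, Spry2, Spry4, Etv4 and Etv5 fell in both. Dusp6 moved in opposite directions. These comparisons share arrays with the knockdown comparisons, so their values are not independent of those above. In the difference of changes 1 of the 10 members was higher in PML KD and 2 were lower, where 50.6% of all genes passed, 25.2% higher and 25.4% lower, and of the brighter genes 44.2% higher and 20.5% lower. These counts depended on the scaling, with 6 higher and 1 lower under the median shift and 2 higher and 4 lower in the quantile-normalized workbook.

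**Figure D4:**
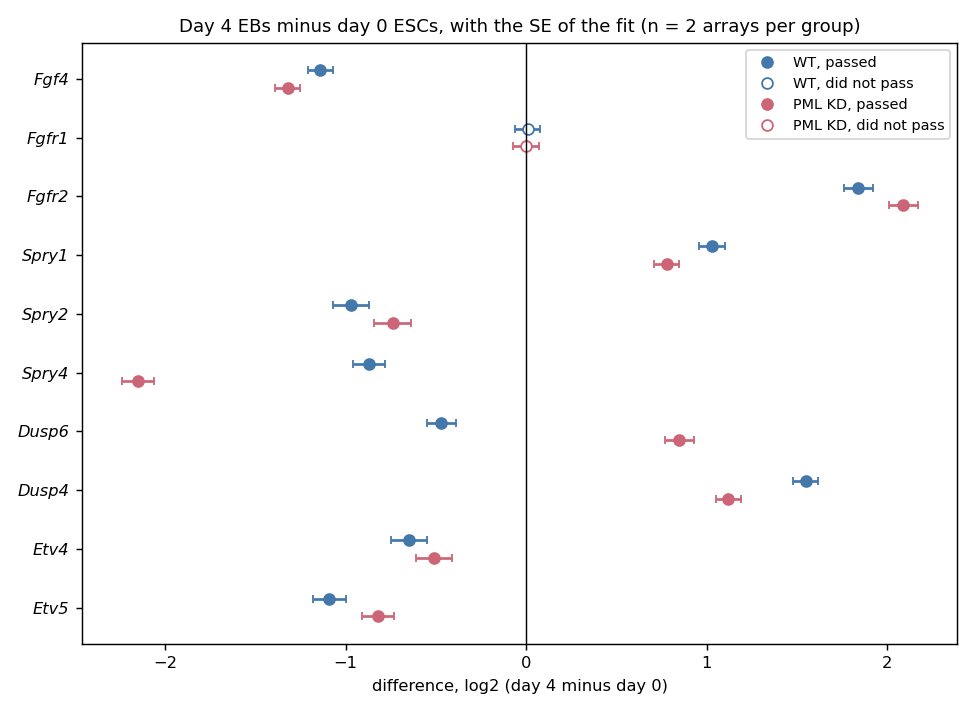
Change from day 0 ESCs to day 4 EBs (log2, horizontal axis) of the 10 genes in WT and in PML KD. Points are fitted differences, bars are their SE (n = 2 arrays per group), and open symbols did not pass. Dusp6 lies at -0.47 in WT and 0.85 in PML KD, and Spry4 at -0.87 and -2.15.

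How the arrays were scaled moved the differences. The median difference of all genes at day 0 was 0.085 as deposited, -0.056 after quantile normalization and -0.14 under the median shift. Relative to that median the deposited differences at day 0 were 0.46 for Fgf4, 0.99 for Fgfr1, 0.32 for Fgfr2 and 0.20 for Spry4. On the same scale they were -0.31 for Spry1, -1.01 for Spry2, -1.38 for Dusp6, -0.37 for Dusp4, -0.88 for Etv4 and -0.61 for Etv5. The median shift leaves these relative values as they are. Quantile normalization does not, and gave 0.77 for Fgf4, -0.69 for Spry2 and -0.31 for Etv5.

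The pathway beyond the 10 genes did not move as a block. Of 95 further genes listed 87 were measured, and at day 0 27 rose and 32 fell, with a median of -0.01. At day 4, 20 rose and 14 fell, with a median of 0.02. The lists differ in signal, so their counts are to be read against genes of like signal. At day 0 the brighter genes had 24.6% rising and 43.3% falling, and the 9969 dimmer genes 30.4% rising and 6.42% falling, with a median of 0.184. At day 4 the dimmer genes had 4.86% rising and 9.89% falling.

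Among the other FGF ligands, 11 of 17 rose in PML KD ESCs and none fell, with a median of 0.39. Only 6 of the 17 were among the brighter genes. Fewer ligands passed under other scalings, 7 after quantile normalization and 4 under the median shift, with medians of 0.20 and 0.17 and none falling. Fgf5, a ligand of the epiblast after implantation, rose by 1.15 ± 0.16 (adjusted p = 0.000575), with 6.38 and 6.87 in WT ESCs and 7.96 and 7.59 in PML KD ESCs. Fgf15 rose by 0.89 ± 0.09 (adjusted p = 0.000125). At day 4 none of the 17 rose and 2 fell. The larger fall was that of Fgf10, by 1.05 ± 0.17 (adjusted p = 0.00282), from 8.71 and 8.69 in WT EBs to 7.56 and 7.76.

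Of the 10 other receptors and co-receptors, 4 rose and 2 fell at day 0, and 1 rose and 4 fell at day 4. Among these 10, 7 belong to the brighter genes. Of all brighter genes 24.6% rose and 43.3% fell at day 0, and 28.8% rose and 13.7% fell at day 4. At day 0 only 1 of the 10 rose after quantile normalization or under the median shift, with medians of 0.03 and 0.02. The rise at day 4 was that of Fgfbp1, by 0.74 ± 0.08 (adjusted p = 0.000354). The day 4 falls included Fgfr3, by 0.49 ± 0.08 (adjusted p = 0.00272), and Fgfr4, by 0.72 ± 0.09 (adjusted p = 0.000889). Klb, the co-receptor beta-Klotho, fell by 1.02 ± 0.11 (adjusted p = 0.000439). At day 4 Fgfr3, Fgfr4 and Klb therefore went the other way from Fgfr1 and Fgfr2. The endoderm markers fell beside them, and their part was not tested.

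Between receptor and ERK the day 0 counts were near those of the brighter genes, to which 10 of the 11 adaptors and all 9 cascade genes measured belong. Of the adaptors 2 rose and 5 fell, among them Shc1 by 0.86 ± 0.07 (adjusted p = 4.74e-05) and Sos2 by 0.71 ± 0.07 (adjusted p = 9.23e-05). Of the RAS to ERK cascade 9 of 16 genes were measured, and 2 rose and 4 fell. Map2k1, which encodes the ERK kinase MEK1, fell by 0.98 ± 0.07 (adjusted p = 2.58e-05), with 10.75 and 10.70 in WT ESCs and 9.69 and 9.80 in PML KD ESCs. Araf instead rose by 0.58 ± 0.08 (adjusted p = 0.00035). At day 4, 3 adaptors and 1 cascade gene rose and none fell. The quantile-normalized workbook measures 15 of the 16 cascade genes, of which 3 rose and 8 fell at day 0, with a median of -0.25. At day 4 in that workbook 1 cascade gene rose and 3 fell, and of 12 adaptors 3 rose and 1 fell.

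Of 18 other brakes of the pathway, 16 of them among the brighter genes, 4 rose and 9 fell at day 0, which is near the shares of the brighter genes. At day 4, 9 rose and 1 fell, where 28.8% of the brighter genes rose and 13.7% fell. Dusp1, a nuclear phosphatase of the early response, fell by 1.20 ± 0.08 at day 0 (adjusted p = 1.45e-05), from 11.46 and 11.55 to 10.27 and 10.33. Il17rd instead rose by 0.66 ± 0.07 at day 0 (adjusted p = 0.000163). Errfi1, an inhibitor of the EGF receptor, fell by 0.71 ± 0.09 at day 0 (adjusted p = 0.000375) and rose by 0.96 ± 0.09 at day 4 (adjusted p = 0.00026). At day 4 the phosphatase genes Dusp5 and Dusp9 rose by 1.13 ± 0.08 (adjusted p = 4.77e-05) and 0.83 ± 0.08 (adjusted p = 0.00023), at the day when Spry1, Spry2, Spry4 and Dusp4 had fallen.

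Of 22 other transcriptional outputs, 4 rose and 12 fell at day 0, with a median of -0.31 against -0.139 over the brighter genes, to which 18 of them belong. The immediate early gene Fos read 10.97 and 10.98 in WT ESCs and 8.17 and 8.13 in PML KD ESCs, a fall of 2.83 ± 0.07 (adjusted p = 6.63e-07). Myc fell by 2.03 ± 0.11 (adjusted p = 8.34e-06) and Junb by 1.25 ± 0.08 (adjusted p = 1.42e-05). Ccnd1, the gene of cyclin D1, went the other way and rose by 1.04 ± 0.07 (adjusted p = 1.86e-05). At day 4, 6 rose and 7 fell: Myc rose by 1.08 ± 0.11 (adjusted p = 0.000311), and Etv1, the third member of the ETV1, ETV4 and ETV5 subfamily, fell by 0.91 ± 0.10 (adjusted p = 0.000482).

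**Figure D5:**
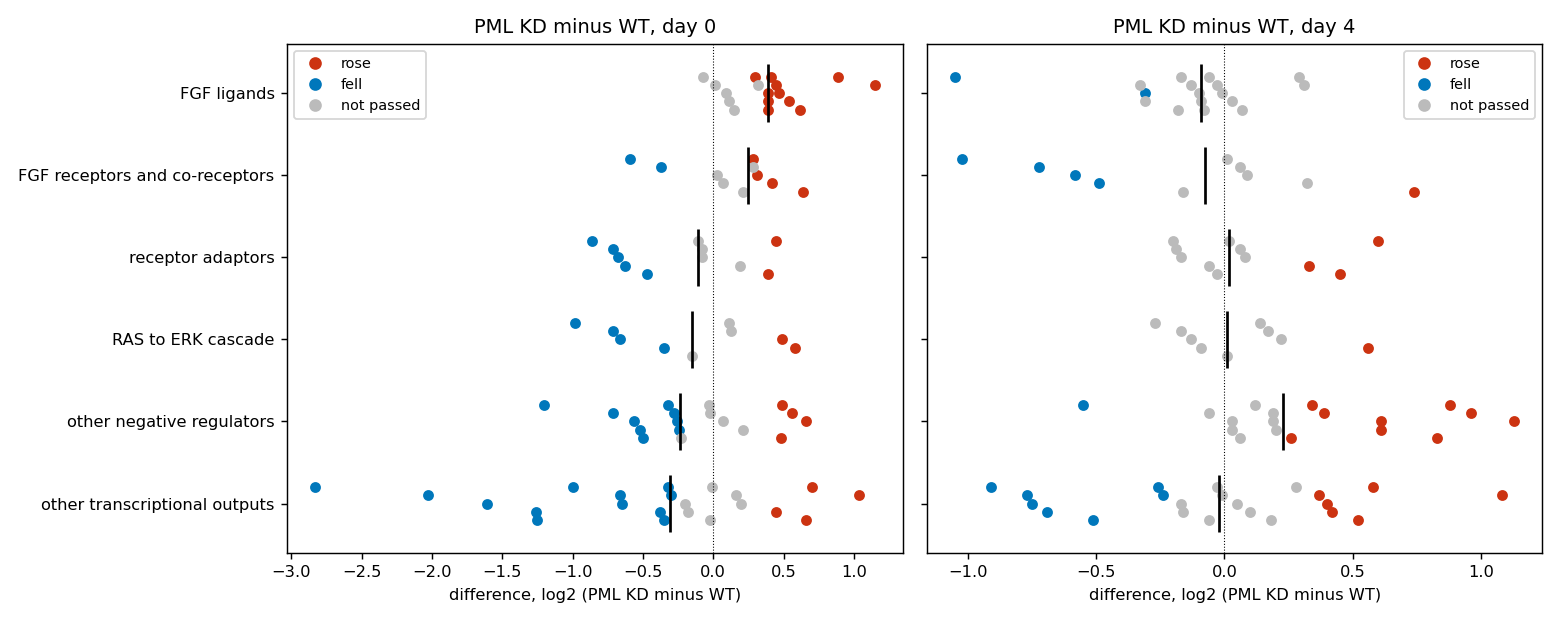
Difference of PML KD from WT (log2, horizontal axis) for the other genes of 6 pathway lists at day 0 and day 4. Each point is 1 gene, coloured by whether it rose, fell or did not pass, and the vertical line is the median of the list. The FGF ligands lie mostly to the right of 0 at day 0, with a median of 0.39 (0.17 under the median shift), and the other negative regulators have a median of -0.24 at day 0 and 0.23 at day 4.

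Across the 8 arrays, which fall into 4 groups and share their group differences, some of the 10 genes had nearly the same profile. Pearson's r over 8 arrays was 1.00 after rounding for Spry1 with Dusp4, 0.99 for Spry2 with Etv4 and 0.93 for Spry2 with Etv5. Fgf4 had -0.98 with Spry1 and with Dusp4, and Fgfr2 had -0.96 with Etv5. By the same measure, among 14234 genes that were not dim or unnamed, the closest profiles to Fgf4 were those of Slc7a3 (0.9989), Rad9b and Slc23a2. Those closest to Fgfr1 were Smpdl3b (0.9966), Gpc2 and Abcc1. Smpdl3b read 7.83 to 7.88 on the WT arrays and 9.20 to 9.34 on the PML KD arrays, and so separated by genotype at both days.

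The profile of Spry2 was closest to Jade1 (0.9988), Usp28 and Renbp, and that of Etv4 to Kctd16 (0.9898), Jade1 and Spry2. For Etv5 the nearest were Pcyt1b (0.9952), Aldh18a1 and Tbx3, a pluripotency factor that was itself among the markers used here. For Spry4 they were Dclk2 (0.9970), Zzef1 and Herc2, and for Fgfr2 they were Tmem106b (0.9972), Adgrl2 and Capn2. Spry1 was nearest to Cemip (0.9986), Col4a2 and Spink1, and Dusp4 to Rbp4 (0.9988), Snora31 and Eml1. Rbp4, a retinol carrier made by visceral endoderm, read 11.75 and 11.83 in WT EBs against 10.00 and 9.86 in PML KD EBs, with 7.10 to 7.72 in the ESCs. Dusp6 was nearest to Sec23a (0.9982), Glrx and Copz2, all low in PML KD ESCs, where Glrx read 7.70 and 8.07 against 9.26 to 10.11 elsewhere.

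Some of the 10 genes shared an order of the 4 groups. Fgfr1 had both PML KD groups above both WT groups, and its days did not differ beyond their spread. Fgf4 ran from WT EBs through PML KD EBs and WT ESCs to PML KD ESCs, and Spry4 from PML KD EBs through WT EBs and WT ESCs to PML KD ESCs. Fgfr2 ran from WT ESCs through PML KD ESCs and WT EBs to PML KD EBs. Spry1 and Dusp4 ran from PML KD ESCs through WT ESCs and PML KD EBs to WT EBs. Spry2, Etv4 and Etv5 were highest in WT ESCs and lowest in PML KD EBs. By group means Spry2 and Etv5 had the same order, with WT EBs below PML KD ESCs, and Etv4 had this pair reversed. For Spry2 and Etv4 the arrays of this middle pair overlapped. Dusp6 was lowest in PML KD ESCs and highest in WT ESCs, and its EB groups overlapped.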

How the data were processed

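Array values were deposited as linear intensity, 1 per probe set (35556), which the authors made with the Transcriptome Analysis Console, per the submitters' processing notes. No source used here gives its version, the background correction or the normalization. A deposited workbook holds log2 values per gene over constitutive exons, per the file headers, and served as an alternative.

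Intensities were log2-transformed without an offset. The 21789 probe sets with 1 symbol gave 19938 genes, the brightest probe set standing for each. limma 3.58.1 in R 4.3.3 was fitted over all 8 arrays as 4 group means with 4 residual degrees of freedom, and p-values were adjusted over all genes by Benjamini-Hochberg. The SD of a single array was 0.107 to 0.131 (log2), and the number of arrays limits the precision. Array medians were 169 to 199 in intensity. The fit was tested on simulated data.

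Deviations of same-numbered arrays correlated at -0.082 to 0.085, so replicate numbers were not taken to pair samples. Alternatives were quantile normalization, a median shift, a constant of 16, leaving out dim genes (lowest 25% of genes), the mean of probe sets, the workbook, the compared samples alone, a replicate block and each array left out. The split of genes by signal and the pathway counts under other scalings were added after seeing the data. Named genes are the 10 members, up to 4 genes per pathway list with the smallest adjusted p among those passing with groups apart, and the 3 closest profiles of each member, of which the text gives a selection. The members, lists and tests were chosen with earlier results of these data known. Chromosomes came from RefSeq.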

Additional observations from a re-analysis of the deposited data

Results flagged for a closer look

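The change from day 0 to day 4 differed between PML KD and WT for 3 of the 10 genes, by the test of the difference itself in limma. For Spry4 the difference of changes was -1.28 ± 0.12 (adjusted p = 8.83e-05), since its fall was larger in PML KD. For Dusp6 it was 1.32 ± 0.11 (adjusted p = 5.81e-05), a fall in WT against a rise in PML KD. For Dusp4 it was -0.43 ± 0.10 (adjusted p = 0.00707), a smaller rise in PML KD, and this call was lost under a median shift, at -0.09 (adjusted p = 0.496). Each rests on PML KD ESC arrays whose Y-linked genes Eif2s3y and Uty were low. Uty read 5.40 and 5.77 there against 9.03 to 9.38 elsewhere, and the part of that was not tested. Dusp4 also lies on chromosome 8, whose brighter genes had a median difference of changes of -0.074, against 0.251 on the other chromosomes. The part of the chromosome in the Dusp4 value was not tested.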

How the results depend on the processing

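The number of genes that passed at day 4 was 5705, against a range of 3376 to 5858 when 1 array was left out, the lowest without PML KD EB replicate 1 and 3535 without PML KD EB replicate 2; over time in PML KD it was 9880, against 15013 in the workbook as deposited, which tests 24408 genes. With the replicate number as a block 10347 genes passed at day 0, 5395 at day 4, 9859 over time in WT, 9726 over time in PML KD and 9941 in the difference of changes. Among the 10 genes the block changed 1 call, that of Etv5 at day 4 (adjusted p = 0.0349).

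The share of calls that were higher depended on the scaling. At day 0 it was 52.5% as deposited, 38.6% after quantile normalization and 21.5% under the median shift, and at day 4 it was 58.8% and 80.2% under the shift. Over time it was 48.8% in WT (23.0% shifted, 27.8% in the workbook as deposited) and 49.1% in PML KD (66.7% and 34.2%). For the difference of changes it was 49.9%, 65.1% after quantile normalization and 83.8% shifted.

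None of the differences that changed sign had passed in the reported fit, and the cause was not tested. Dusp6 at day 4 was -0.07 after quantile normalization, -0.02 in the workbook so normalized, and -0.02 to 0.06 with 1 array left out, lowest without WT EB replicate 1. Fgfr1 over time in WT was -0.20 under the median shift, -0.16 in the workbook as deposited, and -0.01 without WT ESC replicate 1 or WT EB replicate 2. In PML KD it was -0.04 after quantile normalization and in the workbook so normalized, -0.05 in the workbook as deposited, -0.01 without PML KD ESC replicate 2, and -0.03 to 0.03 over the runs that left out 1 array, lowest without PML KD EB replicate 2. In the difference of changes the median shift gave 0.16 for Fgf4, 0.34 for Fgfr1 (adjusted p = 0.0208) and 0.09 for Spry1. The workbook as deposited gave 0.11 for Fgfr1 and -0.49 for Etv4, and after quantile normalization it gave -0.04 for Spry2 and -0.58 for Etv4. Fgfr1 was 0.01 without WT ESC replicate 1, WT EB replicate 2 or PML KD ESC replicate 1 and 0.02 without PML KD EB replicate 1. Etv5 was 0.00 after quantile normalization and -0.15 with its dimmer probe set.

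Some differences of changes passed under an alternative alone: Fgf4 at -0.43 (adjusted p = 0.00715) after quantile normalization, and under the median shift Fgfr2 at 0.60, Spry2 at 0.58, Etv4 at 0.48 and Etv5 at 0.61.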
